A study of Danio rerio with 4 samples.

Results

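Type I collagen is described here through its 3 chain genes in the regenerating and the uninjured fin of the zebrafish (Danio rerio). The members were taken by their Ensembl gene IDs, col1a1a (ENSDARG00000012405), COL1A1 (ENSDARG00000035809) and COL1A2 (ENSDARG00000020007), and are 3 of 32434 genes in the deposited tables. All 3 passed the filter on low counts. The symbols are those of the table that pairs Ensembl IDs with names. That table gives the symbol COL1A1 in capitals to ENSDARG00000035809, and this gene is called COL1A1 throughout, as distinct from col1a1a. The RefSeq gene table lists a duplicate, col1a1b, with alpha3(I) among its synonyms, but pairs it with no Ensembl ID, so COL1A1 may be that alpha3 gene, which was not settled here. The study compared 2 groups of 2 RNA-seq libraries, each made from a pool of 10 fins of wild-type fish of strain EK. The regenerating fins were collected 4 days after amputation to 50% of their length, and the uninjured fins had no treatment. The fins were used whole, and neither the age of the fish nor whether the pools came from separate fish is given in the sources used here. A p-value here therefore sets the difference between the groups against a spread between pools that may be technical. For single genes (edgeR) that spread was estimated with help from all tested genes, not from the pools of that gene alone.

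Type I collagen is the main fibril-forming protein of bone, skin and tendon. Its chains are made as procollagens with propeptides at both ends, are joined at the C-terminal propeptides, wind into a triple helix in the endoplasmic reticulum and, once secreted and trimmed, pack into fibrils. In mammals the molecule holds alpha1 chains and an alpha2 chain, whereas the zebrafish also has an alpha3 chain, encoded by a duplicate of the alpha1 gene. In the fin, type I collagen is known from the bony rays, where osteoblasts lay it down, and from the connective tissue between them.

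The libraries held 34290386 to 48247042 counts. Markers of fin epidermis were present in every library, with krt5, a keratin gene of the epidermis, at 2.31% to 6.01% of all counts. Markers of skeletal muscle summed to 7.37 to 22.6 CPM and markers of blood to 4.52 to 6.69 CPM. The globin genes and the muscle gene mylpfa found no match by symbol, so the blood markers were alas2 and the SLC4A1 genes only. The muscle marker ACTC1 was matched but not tested, and is not in the sum. These sums therefore do not measure how much blood or muscle RNA the libraries held. CPM values here and below are counts brought to a common sequencing depth with TMM factors, which come from a trimmed mean of gene-wise ratios between libraries. Within a group the pools were not repeats of 1 library: over genes with at least 10 counts, chi-square divided by its degrees of freedom was 17.6 between the regenerating pools and 37.1 between the uninjured pools.

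The type I collagen genes together took 3.80% and 3.33% of all counts in the regenerating pools, against 0.304% and 0.315% in the uninjured pools. The regenerating pools lay far above the uninjured ones, and the uninjured pools hardly differed from each other. The summed counts were 1820016 and 1604663 for regenerating, against 133180 and 108003 for uninjured libraries. The mean share was 3.56% ± 0.337 (SD, n = 2) in regenerating and 0.309% ± 0.00789 in uninjured fins, which is 11.5 times as large. An exact two-sided permutation test over the libraries gave p = 0.33, the smallest value that 2 against 2 libraries allow, so that this test could not pass a threshold of 0.05. Exact Clopper-Pearson 95% intervals of the shares, which cover counting error only, ran from 3.80% to 3.81% in the first and from 3.32% to 3.33% in the other regenerating pool, so the difference between pools of a group was larger than counting error. The plot of library shares shows the sums and the part of each chain gene.

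**Figure D1:**
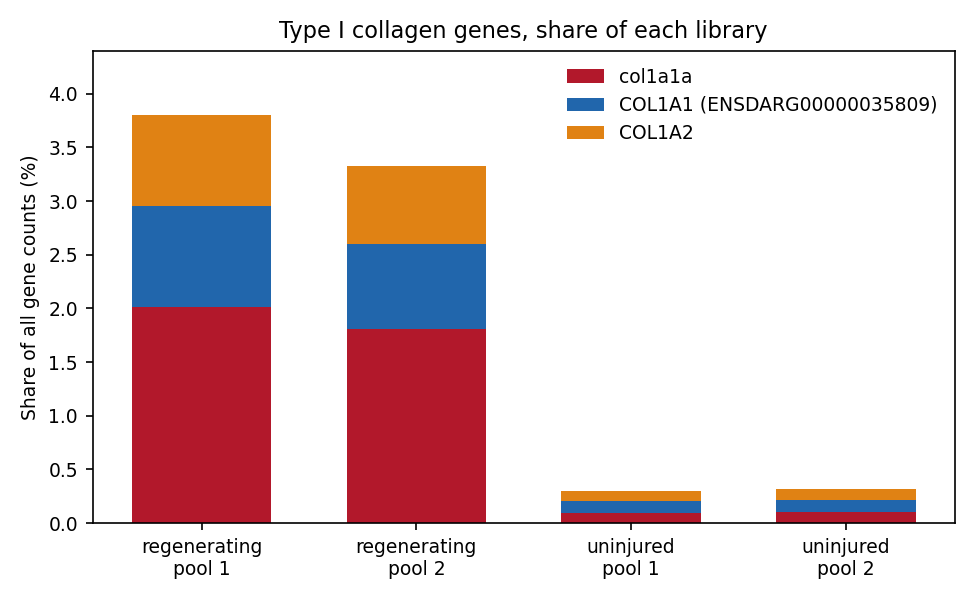
Share of all gene counts (%, y axis) taken by the 3 type I collagen genes in each of the 4 libraries (x axis), with a stacked part for each gene. The regenerating pools reach 3.80% and 3.33% and the uninjured pools 0.304% and 0.315%, and the part of col1a1a widens most.

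col1a1a, the gene of an alpha1 chain, had the largest increase of the 3. Its counts were 961434 and 873510 in the regenerating and 40823 and 35121 in the uninjured libraries, or 2.01% and 1.81% against 0.0931% and 0.102% of all counts. Scaled, its level was 19214 and 16373 CPM in regenerating and 1071 and 1031 CPM in uninjured pools, and the lower regenerating pool stood 15.3 times above the higher uninjured pool. The group means were 17794 ± 2009 and 1051 ± 28.5 CPM (SD, n = 2 pools each). The log2 fold change was 4.08 ± 0.44 (SE), which is 16.9-fold, and its Benjamini-Hochberg adjusted p = 0.000112 over 25594 genes (edgeR quasi-likelihood test). By number of counts col1a1a was at rank 2 of all genes in both regenerating libraries, behind krt5, and at ranks 145 and 123 in the uninjured libraries. Ranks by counts are not corrected for transcript length and are no order of transcript numbers.

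COL1A1 rose less. Its counts were 453142 and 382607 in regenerating and 51164 and 39444 in uninjured libraries, a share of 0.947% and 0.793% against 0.117% and 0.115%. Its scaled level was 9056 and 7172 CPM in regenerating and 1342 and 1158 CPM in uninjured pools, so the groups did not overlap here either, and the lower regenerating pool stood 5.34 times above the higher uninjured one. The log2 fold change was 2.70 ± 0.34 (SE), which is 6.49-fold (adjusted p = 0.000228, edgeR quasi-likelihood). Its rank by counts went from 107 and 97 in the uninjured to 6 in both regenerating libraries.

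COL1A2, the gene of the alpha2 chain, was close to COL1A1 in its increase. Its counts were 405440 and 348546 in regenerating and 41193 and 33438 in uninjured libraries, a share of 0.847% and 0.722% against 0.0940% and 0.0975%. Its scaled level was 8103 and 6533 CPM in regenerating and 1081 and 981.4 CPM in uninjured pools, again with no overlap. The log2 fold change was 2.83 ± 0.32 (SE), which is 7.10-fold (edgeR quasi-likelihood, Benjamini-Hochberg adjusted p = 0.000143). Its rank by counts went from 143 and 129 to 7 in both regenerating libraries.

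All 3 chain genes were thus called higher, where 29.5% of all tested genes were. For all 3 the lower regenerating pool was above the higher uninjured pool, which held for 40.3% of all tested genes. The median log2 fold change of all tested genes was -0.02. Among the 115 tested genes with a mean of at least 1000 CPM, 22 were called higher and the median log2 fold change was -0.72. By fold increase col1a1a, COL1A2 and COL1A1 ranked 143, 522 and 613 of all 25594 tested genes, and 6, 10 and 12 within those 115. Counted in CPM gained, col1a1a ranked 1 of all tested genes, with a gain of 16743 CPM, and COL1A1 and COL1A2 ranked 3 and 4, with 6864 and 6287 CPM. The libraries were of whole fins, in which more cells making type I collagen and more transcript in each such cell cannot be told apart.

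The chains did not keep their proportions. In a regenerating library col1a1a gave 2.37 and 2.51 counts per count of COL1A2, against 0.991 and 1.05 in the uninjured libraries. The groups did not overlap, and the gap between them was far wider than that between pools of a group. The mean ratio was 2.44 ± 0.0953 (SD, n = 2) against 1.02 ± 0.0419, a difference of 1.26 ± 0.06 (SE) on the log2 scale, or 2.39-fold. The ratio of col1a1a to COL1A1 moved alike, from 0.798 and 0.890 in uninjured to 2.12 and 2.28 in regenerating libraries, a log2 difference of 1.38 ± 0.10 (SE), or 2.61-fold. A ratio taken inside a library does not depend on how libraries are scaled. The lengths of the transcripts drop out of its change between groups only if they were alike in both groups, which was not examined. The ratio itself does depend on these lengths, and they were not used here. A ratio of counts near 1 therefore does not show equal numbers of transcripts.

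The ratio of COL1A1 to COL1A2 differed far less between the groups. It was 1.118 and 1.098 in regenerating and 1.242 and 1.180 in uninjured libraries, a log2 difference of -0.13 ± 0.04 (SE). The groups did not overlap, and the regenerating ratio was 0.915 times the uninjured one. For each of the 3 ratios the exact two-sided permutation test gave p = 0.33, the smallest value the design allows. A fit across all genes, added after the data were seen, scaled every library to its counts of the denominator gene. It tested each ratio with a spread estimated over all genes, into which pool differences of the denominator gene also entered. The SE and p-values of this fit therefore do not measure the spread of the ratio alone. With COL1A2 as the denominator, col1a1a was higher by 1.26 ± 0.31 (SE) on the log2 scale (edgeR quasi-likelihood, Benjamini-Hochberg adjusted p = 6.73e-05), where 0.887% of all genes were called higher and 95.7% lower. In the same fit COL1A1 was not called (log2 fold change -0.13 ± 0.30, adjusted p = 0.670), which does not show that its ratio was unchanged. With COL1A1 as the denominator, col1a1a was higher by 1.38 ± 0.30 (edgeR quasi-likelihood, adjusted p = 5.59e-06). In that fit 0.977% of all genes were called higher and 95% lower. Both denominator genes rose themselves, so scaling to them pushed most genes down. The middle gene stood at -2.84 on the log2 scale with COL1A2 as the denominator and at -2.71 with COL1A1. These shares of calls therefore follow from the denominator, and are no background rate against which to judge a ratio.

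**Figure D2:**
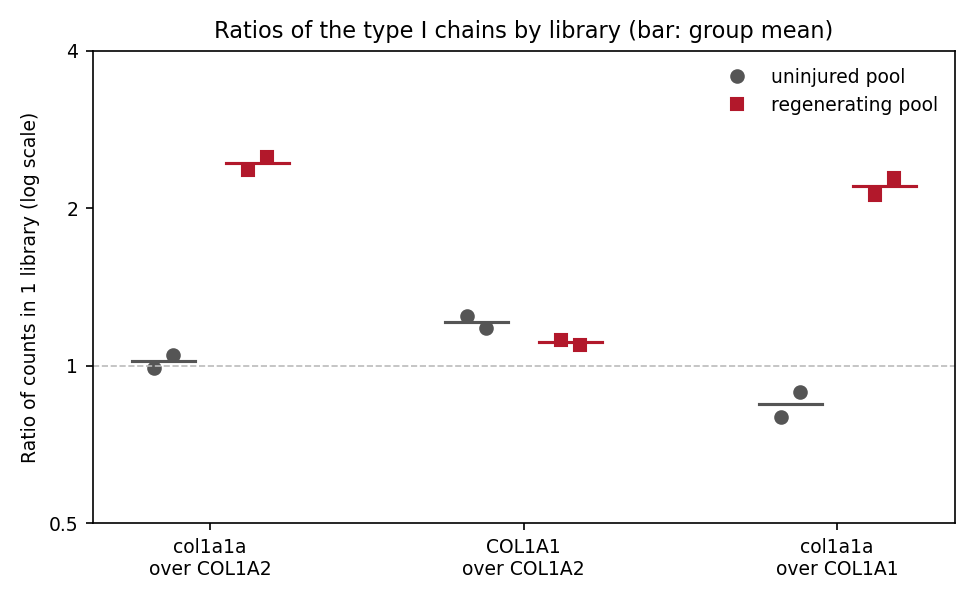
Ratio of the counts of 2 type I chain genes within each library (y axis, log scale) for the 3 pairs of genes (x axis), with a point for each pool and a bar at the group mean. The ratios of col1a1a to COL1A2 and to COL1A1 lie near 1 in uninjured and above 2 in regenerating pools, while COL1A1 to COL1A2 stays between 1.098 and 1.242.

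Seen as parts of the type I counts, col1a1a made up 52.8% and 54.4% in regenerating and 30.7% and 32.5% in uninjured libraries. COL1A1 made up 24.9% and 23.8% against 38.4% and 36.5%, and COL1A2 made up 22.3% and 21.7% against 30.9% and 31.0%. COL1A1 thus gave the most type I counts in both uninjured libraries and col1a1a in both regenerating ones, in counts that are not corrected for length. Reads were 50 bases long, and how the counting treated reads that match both col1a1a and COL1A1, which are paralogs, is not given in the sources used here. The split between the paralogs, and with it each chain ratio, is uncertain to that extent.

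In regenerating fins the chain ratios varied less between pools than the levels did. There the coefficient of variation between pools was 11.3% for col1a1a, 16.4% for COL1A1 and 15.2% for COL1A2 on the CPM scale, and 3.91%, 1.27% and 5.18% for the ratios of col1a1a to COL1A2, COL1A1 to COL1A2 and col1a1a to COL1A1. In uninjured fins it was 2.71%, 10.4% and 6.81% for the levels and 4.11%, 3.65% and 7.75% for the ratios, so that there the level of col1a1a varied less than its ratios did. In regenerating fins all 3 genes were higher in pool 1 than in pool 2, by 0.23 to 0.34 on the log2 scale of TMM-scaled CPM, and their library shares had the same order. In uninjured fins the order depended on the scaling: pool 1 was higher by 0.06 to 0.21 on the log2 CPM scale, but the library shares of col1a1a and COL1A2 were lower in pool 1.

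Type I collagen also took a larger part of the counts of named collagen genes. Of the counts of 50 collagen chain genes with a symbol, the type I genes held 55.2% and 54.5% in regenerating and 36.7% and 33.9% in uninjured libraries. The groups did not overlap, and the means were 54.9% ± 0.469 and 35.3% ± 1.97 (SD, n = 2), with p = 0.33 by the exact two-sided permutation test. Over the fibril-forming chains alone (types I, II, V, XI and XXIV), the part of type I was 82.4% and 82.6% in regenerating and 76.6% and 74.7% in uninjured libraries, so the gap was 6.79 percentage points in place of 19.6. The share of type I in all collagen counts also depends on what the other types did. Type XVII, the hemidesmosome collagen of the epidermis, held 3.01% of the collagen counts in regenerating and 20.6% in uninjured fins, while of its genes col17a1a fell (log2 fold change -2.64) and col17a1b rose (0.61). Type X, a collagen of hypertrophic cartilage in mammals, held 16.5% and 2.36%.

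**Figure D3:**
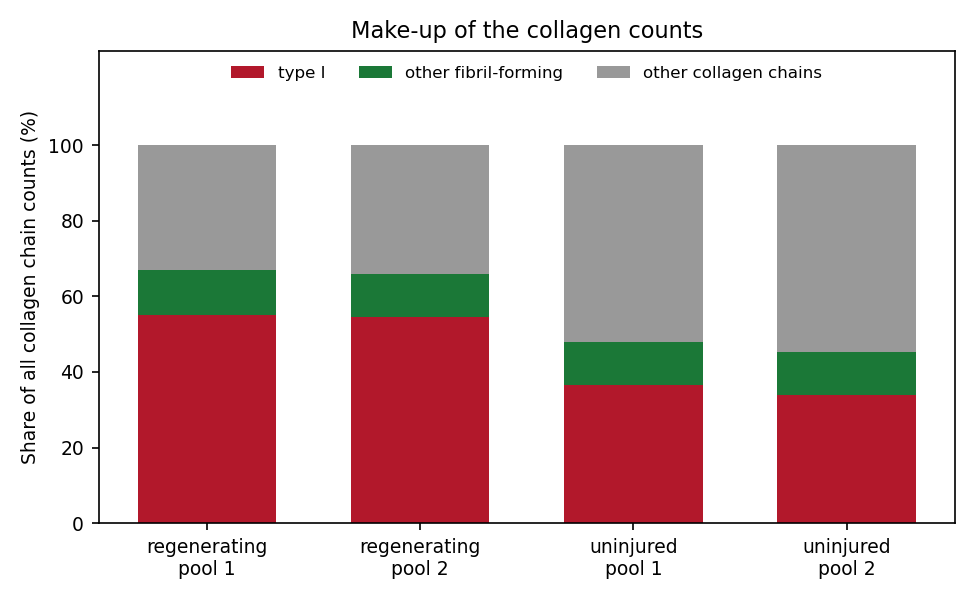
Share of all collagen chain counts (%, y axis) held by type I, by the other fibril-forming chains and by all other collagen chain genes in each of the 4 libraries (x axis). Type I holds 55.2% and 54.5% in the regenerating and 36.7% and 33.9% in the uninjured pools.

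Most other collagen chain genes with a symbol rose as well. Of 47 tested, 29 were higher, 8 were lower and 10 did not pass, beside 29.5% higher and 30.1% lower among all tested genes. Their median log2 fold change was 1.45, beside -0.02 for all tested genes. All 9 other fibril-forming chain genes with a symbol were higher, with a median of 2.99 and a range of 1.85 to 4.30. COL2A1 ENSDARG00000069093, which is 1 of these, was under 1 CPM in every library. Among the 50 collagen genes the increase of col1a1a ranked 5, that of COL1A2 ranked 10 and that of COL1A1 ranked 11. The summed share of the 47 other collagen genes went from 0.570% ± 0.0634 to 2.93% ± 0.222 of all counts, 5.14 times as large, beside the 11.5 times of type I.

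**Figure D4:**
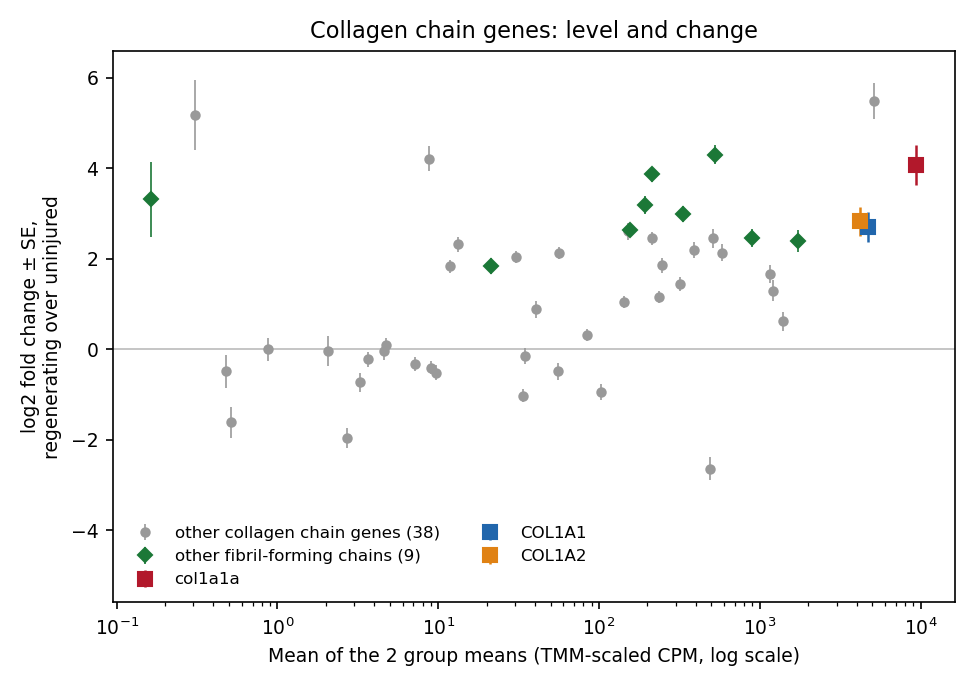
log2 fold change of each collagen chain gene, regenerating over uninjured (y axis, bars are the SE of the quasi-likelihood fit), against the mean of both group means in TMM-scaled CPM (x axis, log scale, not corrected for length). The 3 type I genes lie at the right, with col1a1a at 4.08 above COL1A2 at 2.83 and COL1A1 at 2.70. COL10A1 also lies at the right, at 5.49, and the 9 other fibril-forming genes all lie above 1.8.

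Type V chains form mixed fibrils with type I and limit their width, and types XII and XIV sit on the fibril surface. Of 7 such genes tested, 5 were higher, 1 was lower and 1 did not pass (median log2 fold change 2.40). Among all tested genes 29.5% were higher and 30.1% were lower. The type V genes COL5A1, COL5A2 (ENSDARG00000031678) and col5a2b rose by 2.46 ± 0.21, 2.40 ± 0.24 and 3.19 ± 0.19 on the log2 scale, with adjusted p = 3.21e-05, 8.43e-05 and 7.82e-06 by edgeR's quasi-likelihood test. COL5A2 went from 552 and 546 CPM in uninjured to 3238 and 2552 CPM in regenerating pools. Of the fibril-surface genes, the COL12A1 genes ENSDARG00000019601 and ENSDARG00000078322 rose by 1.67 ± 0.21 and 2.61 ± 0.19, while col14a1b fell by 0.95 ± 0.17. COL14A1 did not pass (0.32 ± 0.13, adjusted p = 0.0613), and it did with scaling by total counts (0.53, adjusted p = 0.0153). Type I gave 6.86 and 7.12 counts for every type V count in regenerating and 4.09 and 3.64 in uninjured libraries, a pair of groups that did not overlap. This ratio and the 2 below were chosen after the values were seen, and the exact two-sided permutation p was 0.33 for each.

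Procollagen must be hydroxylated and folded before export. All 12 tested genes of the hydroxylases and their partners were higher, with a median of 2.13 and a range of 1.45 to 3.70. The shares over all tested genes were 29.5% higher and 30.1% lower. P4HA1 (ENSDARG00000071082) and p4ha1a, which encode catalytic subunits of prolyl 4-hydroxylase, rose by 3.49 ± 0.17 and 2.81 ± 0.14, and P3H1, a prolyl 3-hydroxylase that modifies type I chains, rose by 3.10 ± 0.15. Of 12 chaperone and export genes, 9 were higher, 1 was lower and 2 did not pass (median 1.08). The SERPINH1 genes (ENSDARG00000019949 and ENSDARG00000075954), which encode the collagen chaperone Hsp47, rose by 4.03 ± 0.15 and 3.49 ± 0.16, and FKBP14, a prolyl isomerase, by 3.07 ± 0.14. SEC23B, which encodes a coat protein of vesicles that leave the endoplasmic reticulum, fell by 2.76 ± 0.21. Per count of the SERPINH1 genes together, type I gave 63.9 and 50.5 counts in regenerating libraries, against 84.5 and 67.5 in uninjured ones, with a gap between the nearest pools that was smaller than the spread within either group.

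Once secreted, procollagen is trimmed by N- and C-proteinases. Of 10 tested genes of these enzymes and their enhancers, 8 were higher, 1 was lower and 1 did not pass (median 1.77). Over all tested genes 29.5% were higher and 30.1% were lower. For the C-proteinase, BMP1 ENSDARG00000028071 rose by 3.25 ± 0.18, from 41.8 and 32.1 to 374 and 328 CPM, while the other BMP1 gene, ENSDARG00000028053, did not pass (-0.31 ± 0.17). TLL1, a related proteinase gene, rose by 0.87 ± 0.16. The enhancers of the C-proteinase moved in opposite directions. pcolcea rose by 2.23 ± 0.19 and pcolceb fell by 2.34 ± 0.18, from 212 and 160 CPM in uninjured to 40.2 and 33.3 CPM in regenerating pools. Both PCOLCE2 genes rose, ENSDARG00000055575 by 4.01 ± 0.16 and ENSDARG00000008450 by 1.94 ± 0.18. Among genes that cut the N-propeptide, ADAMTS3 rose by 1.61 ± 0.12 and ADAMTS14 by 1.98 ± 0.13. The meprin gene mep1a.1 rose by 0.68 ± 0.17, and did not pass when regenerating replicate 2 was left out (adjusted p = 0.0749 in edgeR).

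Fibrils are then cross-linked and coated. Of 16 tested genes for cross-linking enzymes and fibril-binding proteins, 13 were higher, 3 did not pass and 0 were lower at the adjusted threshold in edgeR. Their median was 1.78, and among all tested genes 29.5% were higher and 30.1% were lower. The lysyl oxidase genes LOX and LOXL2 rose by 3.79 ± 0.17 and 3.75 ± 0.19, and the small proteoglycan gene BGN (ENSDARG00000017884) by 2.52 ± 0.13. SPARC encodes a collagen-binding protein of bone matrix, and its level went from 1246 and 1197 to 4907 and 4577 CPM. Type I gave 7.41 and 6.57 counts per SPARC count in regenerating and 2.80 and 2.65 in uninjured libraries, 2.56 times as many on average.

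Of 11 tested genes of collagen receptors, 6 were higher, 3 were lower and 2 did not pass (median 0.68), beside 29.5% higher and 30.1% lower among all tested genes. The endocytic collagen receptor gene MRC2 and the discoidin receptor gene DDR2 rose by 3.22 ± 0.18 and 2.98 ± 0.23, while DDR1 was lower (-0.54 ± 0.13). The integrin beta1 gene ITGB1 ENSDARG00000071863 rose by 2.10 ± 0.17. The ITGB1 genes ENSDARG00000022689 and ENSDARG00000053232 did not pass (0.26 ± 0.13 and -0.11 ± 0.12). The integrin gene ITGA2 fell by 1.83 ± 0.12. Of 10 tested genes of collagenases, other collagen-cutting proteases and their inhibitors, 9 were higher and 1 was lower (median 1.81). The membrane collagenase gene MMP14 ENSDARG00000008388 rose by 3.32 ± 0.19, fap, a protease gene of activated fibroblasts, by 3.27 ± 0.14, and the inhibitor gene TIMP2 ENSDARG00000075261 by 2.47 ± 0.22, while mmp30 fell by 2.18 ± 0.32.

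**Figure D5:**
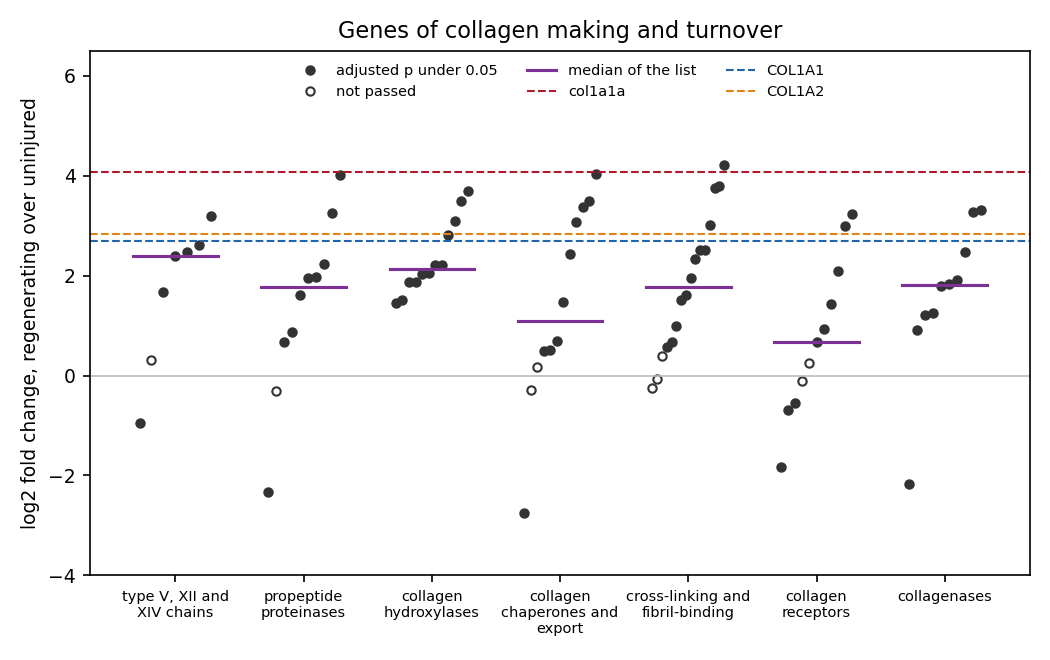
log2 fold change, regenerating over uninjured (y axis), of each tested gene in 7 lists of collagen making and turnover (x axis), with filled points for genes past the adjusted threshold, a bar at each list's median and dashed lines at the 3 type I genes. The list medians, 0.68 to 2.40, all lie under the type I lines at 2.70, 2.83 and 4.08.

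The 8 genes with profiles most like the mean of the 3 chain genes lay within 0.111 to 0.188 log2 units of it, as a Euclidean distance over the 4 libraries after centring each gene on its own mean, among 10502 candidate genes. Among them were CDH2 (N-cadherin), P3H1, MEGF6, fap, PRELP (a small leucine-rich protein of connective tissue), GJA1 (connexin 43) and PARPBP. By this choice their log2 fold changes, 3.02 to 3.31, lay near the mean of the chain genes, and 0 of them was a collagen chain. The chain genes themselves lay farther from this mean, col1a1a at 0.883, COL1A1 at 0.508 and COL1A2 at 0.376. Nearness to the mean is therefore not nearness to any single chain gene. GJA1 stood at 494 and 421 CPM in regenerating and 55.7 and 43.2 CPM in uninjured pools.

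Most markers of cells that can make type I collagen moved with it. The shares among all tested genes were 29.5% higher and 30.1% lower. Of 8 osteoblast markers 7 were higher and 1 was lower (median 1.73), and their summed level was 508 to 541 CPM in regenerating and 137 to 156 CPM in uninjured pools. The mineralisation phosphatase gene PHOSPHO1, PANX3 and ENTPD5 rose by 4.46 ± 0.16, 4.20 ± 0.14 and 3.54 ± 0.17, while bglap, which encodes osteocalcin and marks mature bone, fell by 0.83 ± 0.14. Of 10 markers of fin fibroblasts and blastema mesenchyme 9 were higher and 1 was lower (median 2.26), with summed levels of 1767 to 2111 against 612 to 627 CPM. Most of these sums came from LUM and DCN, which are also in the list of cross-linking and fibril-binding genes. LUM rose by 0.99 ± 0.19 and DCN by 2.51 ± 0.16. The marker that fell was TPH1 ENSDARG00000029432, at under 1 CPM in every library. Its call was lost with scaling by total counts (edgeR adjusted p = 0.121) and in the DESeq2 Wald test (adjusted p = 0.184). The call was also lost without regenerating replicate 1 (log2 fold change -0.65) or either uninjured library (-0.85 each). The other TPH1 gene in the list was among the 9 that were higher. PRRX1 ENSDARG00000042027 and ALDH1A2 rose by 3.04 ± 0.17 and 2.96 ± 0.13. All 3 actinodin genes found by symbol, which mark cells that form the actinotrichia of the fin edge, were higher (median 7.36), with summed levels of 4489 to 5026 against 25.9 to 26.9 CPM. They were and1, and2 and and3, as and4 found no match. Nearly all of the sums came from and1 and and2, with and3 at 3.42 and 4.61 CPM in regenerating pools and a rise of 2.31 ± 0.26. The part of these cell types in the rise of type I collagen was not tested.

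Markers of other cell types differed in direction, beside 29.5% higher and 30.1% lower among all tested genes. Of 6 epidermal markers, 5 were lower, 0 were higher by edgeR's test and 1 (krt5) did not pass (median -1.41), and their summed level was 23770 to 27109 CPM in regenerating and 61578 to 76282 CPM in uninjured pools, most of it from krt5. Both endothelial markers were higher (median 1.55, summed levels 36.8 to 44.1 against 11.5 to 12.3 CPM), with the call of cdh5 lost without regenerating replicate 1 (edgeR adjusted p = 0.0643). Of 4 macrophage markers 2 were higher and 2 lower (median 0.38, summed levels 103 to 141 against 64.6 to 85.3 CPM). Of 6 muscle markers 2 were higher, 1 was lower and 3 did not pass (median 0.49, summed levels 19.9 to 22.6 against 7.37 to 10.9 CPM). The calls of ckma and myhz2 were lost when some single libraries were left out (log2 fold changes 0.61 to 0.82 and -1.07 to -0.80). That of myhz2 was also lost with scaling by total counts (edgeR adjusted p = 0.0561) and in the DESeq2 Wald test (adjusted p = 0.0937). That of ckma was also lost with no filter on low counts (edgeR adjusted p = 0.0534). None of the 3 blood markers, with no globin gene among them, passed edgeR's test (median 0.07). Of 4 cartilage markers 3 were higher and 1 did not pass (median 2.58, summed levels 264 to 274 against 41.3 to 47.3 CPM, nearly all of it from COL2A1 ENSDARG00000011407). Of those higher, acana and COL2A1 ENSDARG00000069093 were under 1 CPM in every library. Both COL2A1 genes were also counted among the fibril-forming genes above. No marker gene was at 0 in all libraries. Their part in the rise of type I collagen was not tested.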

How the data were processed

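RNA of 4 pools of 10 fins was sequenced as 50-base single-end reads, per the labels' protocols. The authors deposited raw, whole-number counts for each Ensembl gene, with no scaling. Per the submitters' processing notes CASAVA, TopHat and edgeR were used with genome build Zv9, and per the file headers the counted reads were accepted hits; tool versions, the counter, the annotation release and whether strand was used are not given in these sources.

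Columns were assigned by name. Symbols were found for 64.0% of IDs. Genes were filtered with filterByExpr (minimum count 10, minimum total 15), scaled by TMM and tested in edgeR 4.0.16 (R 4.3.3) by the quasi-likelihood test with legacy estimation off and group as the only term, with Benjamini-Hochberg adjustment over 25594 genes and a threshold of 0.05. CPM values are TMM-scaled. The same edgeR test and adjustment stand behind every call and log2 fold change of a gene, except in the fits scaled to a chain gene and in the alternatives. Shares and chain ratios used raw counts and exact permutation tests (scipy 1.17.1). The fit was tested on simulated data. DESeq2 1.42.0 was an alternative. Intervals cover counting error only, and no gene lengths, coordinates or sequences were used here.

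Members and lists were chosen with earlier results of these data known. Of 148 symbols in 16 lists, 120 matched, some without their paralog suffix, in which case every ID of that symbol entered the list. Named were the members, the 8 genes of most similar profile with a mean of at least 5 CPM, up to 4 genes per list by adjusted p, and every gene of the lists of type V, XII and XIV chains and of propeptide proteinases; a part of those chosen is printed, and 1 gene that the rule took is not reported here. SPARC and types X and XVII were chosen after their values were seen. DDR1, LUM, DCN, krt5 and the ITGB1 genes that did not pass are also named outside the rule. None of these genes was among those checked under the alternatives.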

Additional observations from a re-analysis of the deposited data

How the results depend on the processing

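All 3 type I genes stayed higher and past the threshold under each of the 12 alternatives. The log2 fold change ran from 3.97 to 4.29 for col1a1a, from 2.53 to 2.91 for COL1A1 and from 2.67 to 3.04 for COL1A2, with a largest adjusted p of 0.000871. Scaling by total counts raised the median of all genes by 0.21 and the share of calls that were higher from 49.5% to 61.8%; relative to that median, the type I genes stood at 4.10, 2.72 and 2.85. With at least 10 CPM in 2 libraries, fewer genes were tested, and 4384 were higher and 4461 lower in place of 7551 and 7693. The edgeR fits scaled to a chain gene called the ratios of col1a1a to COL1A2 (1.26) and to COL1A1 (1.38). They used a spread estimated over all genes, and the exact test could not call these ratios. Without 1 library at a time, these log2 differences were 1.21 to 1.30 and 1.31 to 1.46, that of COL1A1 to COL1A2 was -0.17 to -0.09, the gap in library share was 3.02 to 3.49 and that in collagen share 18.2 to 21.0 percentage points. The replicate numbers are not stated to pair pools, and the differences between pools 1 and 2 of the groups correlated at -0.03 across genes. With a replicate block the log2 fold changes were 4.08, 2.69 and 2.82, and 7472 genes were higher and 7624 lower. Of 66 other genes that the naming rule took, 6 changed their call under some alternative, and 0 changed direction. Ratios per coding length were not run.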

Other observations

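The gain of the 3 type I genes together was 29893 CPM, which is 11.1% of the summed gains of all tested genes whose mean was higher in regenerating fins. In uninjured fins the genes together took about 1 in 329 and 1 in 317 counts, and in regenerating fins about 1 in 26.3 and 1 in 30.1.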
